A study of Mus musculus with 12 samples.

Results

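Chromatin accessibility with estradiol (E2) was set against accessibility with E2 under estrogen receptor blockade in primary fibroblasts of the mouse lower abdominal muscle. The comparison used 6 of the 12 ATAC-seq libraries of the study, with 3 libraries given 10 nM E2 and 3 given 10 nM E2 after 100 nM fulvestrant. All cells came from Aromhum mice, a model that carries the human aromatase gene and makes estrogen in muscle, so donors in both groups had lived with raised muscle estrogen. Per the methods of the study, passaged adherent cells were starved overnight in serum-free medium and received fulvestrant or its solvent DMSO ahead of E2, which acted for 1 hour. The other 6 libraries, 3 with the solvents ethanol and DMSO (vehicle) and 3 with fulvestrant alone, are used below only as a background. The paper states that its mice were male. The age of the donor mice and the animals behind each library are not given in the sources used here, so the spread between libraries may be partly technical.

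Peaks of the 6 lists on chromosomes 1 to 19 and X were merged where they overlapped or touched, which gave 228795 regions, against 431930 when all 12 lists were merged. A library called a region when its list placed a peak there. Regions called in at least 2 of 3 E2 libraries and in 0 of 3 E2 plus fulvestrant libraries are termed E2-only regions, and the reverse are termed E2 plus fulvestrant-only regions. Regions called in all 6 are termed shared. The lists hold peaks and not reads, and the absence of a peak does not show closed chromatin.

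E2 binds the estrogen receptor ESR1, a ligand-activated transcription factor of the nuclear receptor family. The bound receptor acts as a dimer on the estrogen response element (ERE), a palindrome with AGGTCA-like arms, or through other factors such as AP-1, and recruits coactivators of the NCOA family together with the histone acetyltransferases EP300 and CREBBP. Fulvestrant competes with E2 for the receptor and leads to its degradation. Greb1 and Pgr, which encode an ESR1 cofactor and the progesterone receptor, are among the best known direct targets.

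Libraries numbered 1 stood apart from those numbered 2 and 3 in both groups. At q of 0.05 or less stood 38.7% of the peaks of E2 replicate 1 and 41.0% of those of E2 plus fulvestrant replicate 1, but only 6.31% to 8.14% of the peaks of the other 4 libraries. Peaks on chromosome Y numbered 36 and 22 in the libraries numbered 1 and 854 to 1148 in the other 4. The paper describes only male mice, and the cause of this gap was not tested. The lists held 78564, 47408 and 30505 peaks with E2 and 60703, 35121 and 32507 with E2 plus fulvestrant, in the order of their numbers. Expressed as log2, the peak number averaged 15.56 ± 0.683 for E2 and 15.33 ± 0.491 for E2 plus fulvestrant (SD, n = 3), and the difference of 0.24 did not exceed the spread between libraries (exact two-sided permutation test, p = 0.7, the smallest possible being 0.10). This difference was 0.37 and 0.43 within numbers 1 and 2 and had the opposite sign, -0.09, within number 3. The recovered background, a measure of relative depth, was 0.979 to 1.25 tags per window with E2 and 1.02 to 1.11 with E2 plus fulvestrant.

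The label of the cells was checked by their promoters, a promoter being called when a peak summit lay within 3000 bp of a start site of a protein-coding gene. In E2 replicate 1, 15 of 18 fibroblast marker promoters (83.3%) were called, beside 6 of 15 myogenic markers, 4 of 10 endothelial markers, 3 of 10 immune markers and 3 of 7 adipogenic markers. In E2 plus fulvestrant replicate 1 these were 13 of 18, 5 of 15, 2 of 10, 3 of 10 and 3 of 7. Over all 21728 protein-coding genes, 63.1% and 60.7% of promoters were called in those libraries, so in both of them the fibroblast markers lay above the genome-wide share and the other marker lists lay below it. The same order was seen in E2 replicate 3, with 4 of 18 fibroblast promoters (22.2%) called beside 17.3% of all promoters and 14.3% or less of each other marker list. It was not seen in E2 replicate 2, where 8 of 18 fibroblast, 6 of 15 myogenic and 4 of 10 endothelial promoters were called, all above the 25.5% of all genes. In E2 plus fulvestrant replicate 2 only 2 of 18 fibroblast promoters were called, below the 20.2% of all genes, and in replicate 3 of that group 5 of 18 fibroblast, 4 of 15 myogenic and 3 of 7 adipogenic promoters were called, all above 22.3%.

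Selected sequences are given first, picked by rank, likeness or an ERE match and not as typical of the lists. All are from the plus strand of the mouse genome build mm10, 201 bases long and centred on the strongest summit of the region. The strongest E2 plus fulvestrant-only region, by the second-best percentile of its fold enrichment, lay in an intron at chr15:57419945-57420583, nearest to the transporter gene Slc22a22 at 57361 bp.
Slc22a22, chr15:57420346-57420546: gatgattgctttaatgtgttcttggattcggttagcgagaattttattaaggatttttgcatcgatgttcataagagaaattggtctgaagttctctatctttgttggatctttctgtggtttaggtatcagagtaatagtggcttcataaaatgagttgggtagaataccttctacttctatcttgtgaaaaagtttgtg
The whole of this window (100%) is soft-masked as repeat in the reference, beside a mean of 36.1% in E2 plus fulvestrant-only regions.

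Both classes also held copies of 1 sequence. The E2-only region in an intron of Cadm2, a cell adhesion gene, at chr16:66961457-66961679, and the E2 plus fulvestrant-only region nearest to BC048403, at chr10:121713011-121713315, matched at 177 of 198 aligned bases (89.4% identity). Capitals mark the longest run of 30 bases common to both.
Cadm2, chr16:66961441-66961641: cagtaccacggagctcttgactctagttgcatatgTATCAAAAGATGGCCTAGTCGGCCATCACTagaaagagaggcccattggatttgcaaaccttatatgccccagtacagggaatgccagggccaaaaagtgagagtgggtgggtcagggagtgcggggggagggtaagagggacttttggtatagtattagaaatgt
BC048403, chr10:121713045-121713245: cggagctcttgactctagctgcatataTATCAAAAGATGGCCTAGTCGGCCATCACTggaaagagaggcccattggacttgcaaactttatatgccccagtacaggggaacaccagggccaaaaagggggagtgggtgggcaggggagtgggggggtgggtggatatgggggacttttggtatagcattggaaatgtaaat
This run was found in 14 of 4498 E2-only regions (0.311%), 5 of 2403 E2 plus fulvestrant-only regions (0.208%), 7 of 1005 shared regions (0.697%) and 284 of all 228795 (0.124%), with 100 bp on either side of each summit read on both strands. The run was chosen after the sequences were seen.

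The ERE, searched as GGTCANNNTGACC, was found within 100 bp of the summit in 1 E2-only region and in 1 E2 plus fulvestrant-only region, both in introns. The first lay at chr2:157054305-157054672, 14250 bp from a start site of Soga1, and the second at chr8:61539835-61540447, 6300 bp from a start site of Palld, which encodes the actin-binding protein palladin. Capitals mark the ERE.
Soga1, chr2:157054376-157054576: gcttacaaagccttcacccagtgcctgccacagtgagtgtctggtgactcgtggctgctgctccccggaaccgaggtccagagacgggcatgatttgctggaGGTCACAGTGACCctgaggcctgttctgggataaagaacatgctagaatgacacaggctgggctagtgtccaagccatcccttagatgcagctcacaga
Palld, chr8:61540160-61540360: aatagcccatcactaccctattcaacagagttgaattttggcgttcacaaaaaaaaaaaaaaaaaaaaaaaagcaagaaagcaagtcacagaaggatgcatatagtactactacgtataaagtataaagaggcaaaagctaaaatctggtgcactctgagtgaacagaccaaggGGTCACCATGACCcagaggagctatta
The Soga1 region was called in E2 replicates 1 and 3, at percentiles 83.8 and 19 of their lists, and in 1 vehicle library. The Palld region was called in E2 plus fulvestrant replicates 1 and 2, at percentiles 63.6 and 35.5, and in 0 of the 6 outside libraries. Here and below, a percentile is the rank of the fold enrichment of a peak within its own list, with 100 the strongest.

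Most regions were seen in a single library. Of the 228795 regions, 106324 were called in 1 E2 library alone and 83758 in 1 E2 plus fulvestrant library alone. At least 2 libraries of 1 treatment and 0 of the other called 4498 regions with E2 (1.97%) and 2403 with E2 plus fulvestrant (1.05%). All 3 libraries against 0 were met by 280 regions with E2 and by 84 with E2 plus fulvestrant. Just outside the rule, 2741 regions had 2 E2 libraries and 1 E2 plus fulvestrant library, and 2385 had the reverse. The grid of regions by calling libraries shows that the counts fell steeply from the corner of single calls and rose again at the 1005 regions called in all 6.

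**Figure D1:**
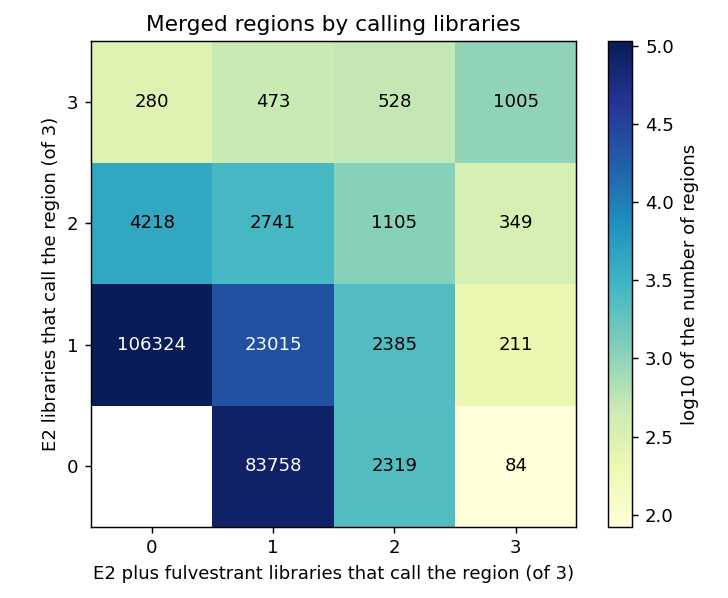
Number of merged regions by how many of the 3 E2 libraries (vertical axis) and of the 3 E2 plus fulvestrant libraries (horizontal axis) called them, with colour on a log10 scale. Single calls on either side hold 106324 and 83758 regions, while 280 and 84 regions were called by all 3 libraries of 1 treatment and none of the other.

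The E2-only regions came mainly from pairs that included E2 replicate 1, the longest list. E2 replicates 1 and 2 together gave 1954 of them, replicates 1 and 3 gave 1370, and replicates 2 and 3 gave 894. For E2 plus fulvestrant, the pairs gave 794, 846 and 679 regions. With each list cut to its strongest 30505 peaks, E2-only regions numbered 2098 and E2 plus fulvestrant-only regions 1530, and with peaks at q of 0.05 or less they numbered 442 and 115. Without the libraries numbered 1 in both groups, 1565 and 1022 remained by the same rule of 2 libraries against 0.

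With 3 libraries on each side, or 2 on each side without the libraries numbered 1, E2-only regions were the more numerous, by 1.37 times with lists of equal length to 3.84 times at q of 0.05 or less. Leaving out E2 replicate 1, 2 or 3 gave 1174, 1650 or 2234 E2-only regions and 4250, 2808 or 2747 E2 plus fulvestrant-only regions. Leaving out E2 plus fulvestrant replicate 1, 2 or 3 gave 6435, 5148 or 5125 E2-only regions and 763, 930 or 878 E2 plus fulvestrant-only regions. A side with 2 libraries must have both call a region and excludes with fewer lists, so these counts move by construction and say nothing of the stability of the order. These counts have no test, since each treatment gives only 1 count.

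**Figure D2:**
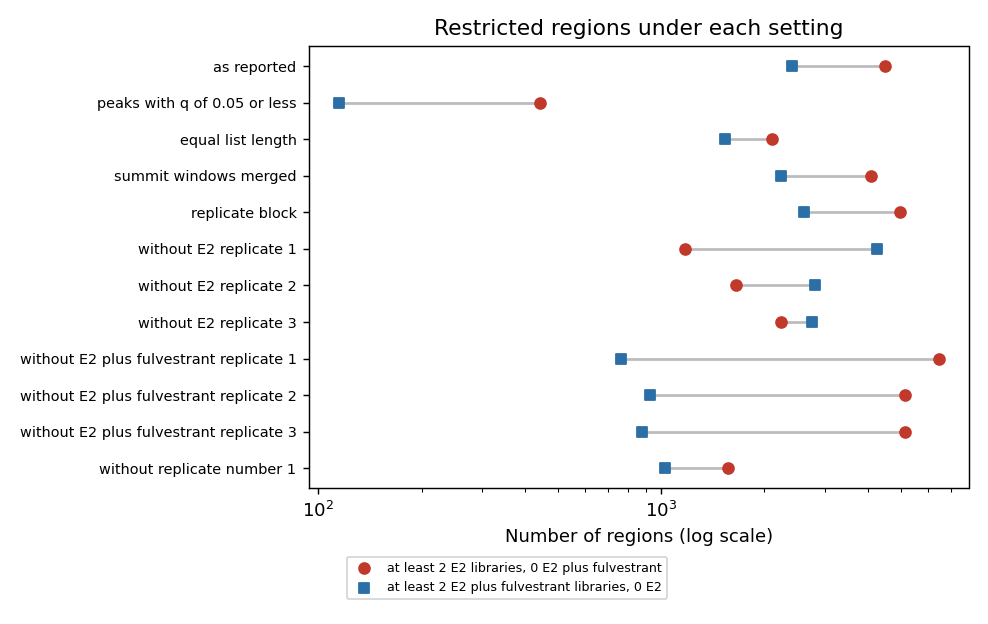
Number of E2-only regions (circles) and E2 plus fulvestrant-only regions (squares) on a log scale as reported and under each other setting. E2-only regions were more numerous in all settings shown with as many libraries on either side, while the settings that leave out 1 library move the counts by construction.

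Both classes were narrower and weaker than the shared regions. The median width was 395 bp for E2-only, 386 bp for E2 plus fulvestrant-only and 738 bp for shared regions. Within the lists of the calling libraries, the median percentile was 49.6, 52.9 and 53.1 for E2-only regions in E2 replicates 1, 2 and 3, and 38.7, 51.6 and 52.1 for E2 plus fulvestrant-only regions in the replicates of that group. Shared regions had medians of 88.1, 97.3 and 94.8 with E2 and 81.2, 96.4 and 95.5 with E2 plus fulvestrant. A q of 0.05 or less in every calling library was reached by 118 E2-only regions (2.62%) and 32 E2 plus fulvestrant-only regions (1.33%), beside 456 shared regions (45.4%).

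E2-only regions lay less often near start sites and more often between genes than all regions did. Their share near start sites was, however, close to that of regions called in a single library. Promoters, taken here as within 3000 bp of a start site of any annotated gene, held 21% of E2-only regions (95% Wilson interval 19.8 to 22.2) and 23.8% of E2 plus fulvestrant-only regions (22.2 to 25.6), beside 24.0% of all regions. Intergenic positions held 43.6%, 37.9% and 38.7%, and introns 31.9%, 33.7% and 34.1%. Of the 190082 regions called in a single library of either treatment, 20.95% lay in promoters and 39.98% in intergenic positions. The lower promoter share was therefore not particular to E2-only regions, while their intergenic share lay above that of single calls too. The mean soft-masked share of bases around the summit was 45.2% in E2-only, 36.1% in E2 plus fulvestrant-only, 51.9% in shared and 30.2% in all regions. Chromosome X held 87 E2-only regions (1.93%), 34 E2 plus fulvestrant-only regions (1.41%) and 1.12% of all regions. Intervals cover counting error over regions only, and regions are not replicates of a treatment.

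**Figure D3:**
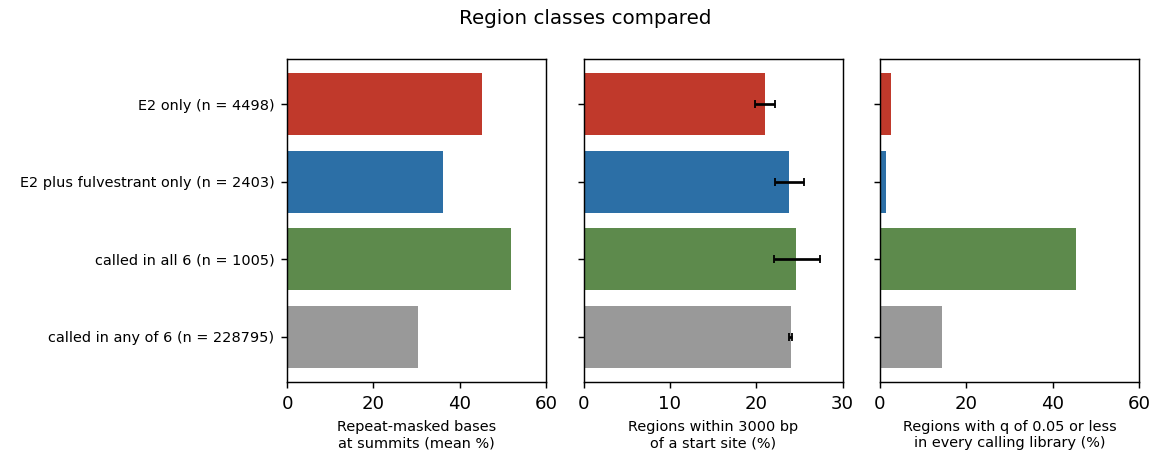
Mean share of repeat-masked bases within 100 bp of the summit, share of regions within 3000 bp of a start site with 95% Wilson intervals, and share of regions at q of 0.05 or less in every calling library, for the 4 classes of regions. Repeat-masked bases made up 45.2% and 36.1% of the summit windows of E2-only and E2 plus fulvestrant-only regions, above the 30.2% of all regions.

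AGGTCA and AP-1 matches were not more frequent in E2-only regions than in all regions, while ACGTG differed little. The single ERE arm, searched as AGGTCA on both strands and also part of some EREs, was found in 507 E2-only regions (11.3%, 95% Wilson interval 10.4 to 12.2), 295 E2 plus fulvestrant-only regions (12.3%, 11 to 13.6) and 13.2% of all regions. The AP-1 site, TGACTCA or TGAGTCA, was found in 114 (2.53%, 2.11 to 3.04), 93 (3.87%, 3.17 to 4.72) and 4.02%. ACGTG, the core of the hypoxia response element, was found in 12.1%, 12.3% and 11.3%. The full ERE occurred in 71 of all 228795 regions (0.031%). The search covered 100 bp on either side of the summit, and a match is only a match of letters.

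The 6 E2-only regions with the highest second-best percentile lay nearest to Epha3, Fam241a, Gm17361, Myh15, Cldn34c3 and Cadm2, and 5 of the 6 had over 80% of their window soft-masked. In the Fam241a region, an intron at chr3:128225416-128225712, the peaks of E2 replicates 2 and 3 ranked at percentiles 99 and 98.8, and 1 vehicle and 3 fulvestrant libraries had a peak there too. The Cadm2 region was called in all 3 E2 libraries, at percentiles 81.6, 95.9 and 97.8, in 2 vehicle libraries and in 0 fulvestrant libraries. The Epha3 region ranked at 86.5, 99.1 and 99.1 in the E2 libraries and was called in 2 vehicle and 3 fulvestrant libraries. Of the 6 regions, 5 had a peak in at least 1 library given fulvestrant alone, although none had a peak with E2 plus fulvestrant.

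The corresponding 6 E2 plus fulvestrant-only regions lay nearest to Slc22a22, BC048403, Ubr2, Nlrc3, Hps3 and Slc35f5, and all were called in replicates 2 and 3 of that group and not in replicate 1. The region nearest to Nlrc3, which encodes a regulator of innate immune signalling, lay within 3000 bp of a start site at chr16:3974633-3974915 and ranked at percentiles 96.4 and 97.3, with peaks in 2 fulvestrant and 0 vehicle libraries. The Slc22a22 region ranked at 98.6 and 98.4 and had a peak in 0 of the 6 outside libraries. The windows of the Nlrc3 and Hps3 regions were not soft-masked, while those of Slc22a22, BC048403 and Slc35f5 were soft-masked at 100%. Both unmasked windows nevertheless consist of a unit repeated in tandem, so the lack of soft-masking does not mark unique sequence.

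The 6 outside libraries, which the rule did not use, called E2-only regions more often than E2 plus fulvestrant-only regions, with vehicle as with fulvestrant. E2-only regions had a peak in 16.5%, 32.8% and 9.49% of cases in vehicle replicates 1, 2 and 3 and in 19.9%, 10.8% and 13.5% in the fulvestrant replicates. E2 plus fulvestrant-only regions had a peak in 12.5%, 22.9% and 9.49% with vehicle and in 15.9%, 8.32% and 10.5% with fulvestrant. The E2-only share exceeded the other in all 6 libraries, by 0.00497 points in vehicle replicate 3 and by up to 9.91 points in vehicle replicate 2. This excess was 4.62 ± 4.99 points with vehicle and 3.13 ± 0.761 points with fulvestrant (SD, n = 3), and the difference of 1.49 points did not exceed the spread (exact two-sided permutation test, p = 0.8). Within numbers 1, 2 and 3 it was -0.00849, 7.45 and -2.96 points, of opposite signs, and without vehicle replicate 2 it was -1.15 points. No peak in any of the 6 outside libraries was found for 1941 E2-only regions (43.2%) and 1215 E2 plus fulvestrant-only regions (50.6%), beside 68.0% of all regions.

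**Figure D4:**
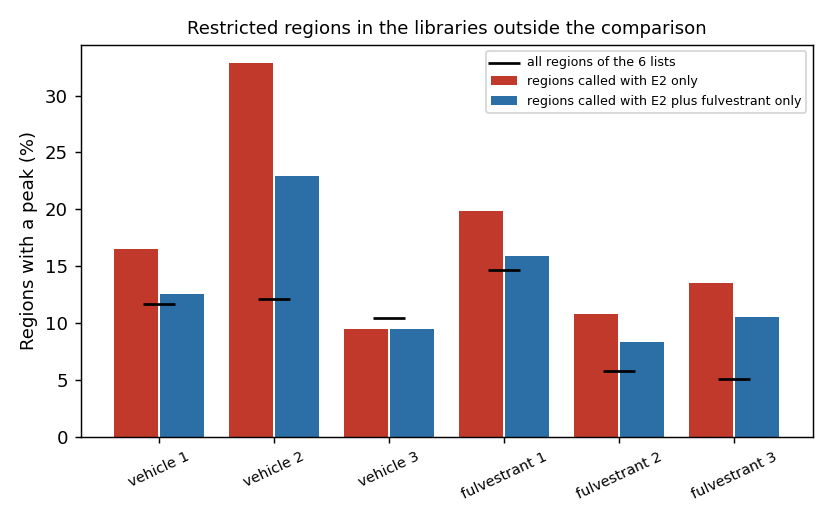
Share of E2-only and E2 plus fulvestrant-only regions with a peak in each vehicle and fulvestrant library (bars), with the share of all 228795 regions as a black line. Vehicle replicate 2 called the largest shares, 32.8% and 22.9%, and in the other 5 libraries the bars of a pair lay within 4 points of each other.

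The shared regions were the strong part of every list, which a rule of calls in all 6 favours. They took up 1.38%, 2.35% and 3.51% of the peaks in the E2 libraries and 1.79%, 3.11% and 3.29% in the E2 plus fulvestrant libraries, and the means of 2.41 ± 1.07% and 2.73 ± 0.815% (SD, n = 3) differed by -0.315 points (exact two-sided permutation test, p = 0.7). The difference was -0.410 and -0.762 points within numbers 1 and 2 and had the opposite sign, 0.225 points, within number 3. All 6 outside libraries also called 653 of the 1005 shared regions. GC content at summits, over all peaks, was 49.8 ± 1.70% for E2 and 49.8 ± 2.45% for the combination, a difference of -0.0302 points (p = 1 by the same exact permutation test), being -0.842, 1.43 and -0.681 within numbers 1, 2 and 3. The 4 exact tests gave a Benjamini-Hochberg adjusted p of 1 each.

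Among shared regions no change of rank passed the test. Ranks were turned into normal scores within each list and compared with limma, and 0 of 1005 regions passed an adjusted p of 0.05 (0%), with a smallest adjusted p of 0.999. At an unadjusted p under 0.05 stood 28 regions that ranked higher with E2 and 2 that ranked lower. The mean score was higher with E2 in 670 of the 1005 regions (66.7%), and the median difference was 0.12 beside a median standard error of 0.49. On the scale of log2 fold enrichment, centred on the shared regions, the unadjusted counts were 15 and 15, so this split was not seen there. Centring also removes an overall shift between lists, and the parts of scale and centring were not told apart.

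Named shared regions had wide spreads. The region nearest to St6galnac1, which encodes a sialyltransferase, lay in an intron at chr11:116745664-116746724 and ranked at percentiles 84.7, 97.7 and 93.8 with E2 and at 52.0, 52.6 and 23.4 with E2 plus fulvestrant. The groups did not overlap there, and the difference in normal score was 1.72 ± 0.40 (SE, limma adjusted p = 0.999). The region nearest to Pkdcc, a gene for a secreted kinase of bone and limb growth, ranked at 83.8, 88.2 and 93.4 with E2 and at 39.6, 35.5 and 56.0 with E2 plus fulvestrant, at chr17:83104145-83104972. Of the 5 with the smallest p in the other direction, the region nearest to Gm10139, at chr13:65489579-65490705, ranked at 36.8, 53.6 and 1.80 with E2 and at 76.7, 81.5 and 83.7 with E2 plus fulvestrant, a difference of -1.65 ± 0.59 (SE, limma adjusted p = 0.999). The other 7 lay nearest to Gm9887, Fcgr3 and Gm7697 on the E2 side and to Gm17019, Speer4d, Slc16a14 and Zfp386 on the other. The limma adjusted p was 0.999 for all 10. Of the 1005 shared regions, 36 had non-overlapping percentiles higher with E2 and 4 higher with E2 plus fulvestrant. With 3 libraries a side, full separation in either direction has a probability of 0.10 under random labels, so these counts are no excess. None of these 40 passed the limma test, which called 0%.

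Esr1 itself was nearest to a shared region on a tandem repeat. The region, in an intron at chr10:4730102-4730480 and 17640 bp from a start site, holds 55 copies of TGG in its window, with a longest row of 15. Capitals mark the longest row.
Esr1, chr10:4730182-4730382: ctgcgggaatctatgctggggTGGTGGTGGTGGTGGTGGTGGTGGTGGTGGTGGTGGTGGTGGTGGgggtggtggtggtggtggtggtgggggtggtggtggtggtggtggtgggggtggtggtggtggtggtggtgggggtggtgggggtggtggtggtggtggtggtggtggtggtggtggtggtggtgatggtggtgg
The Esr1 peak ranked at 90.7, 66.6 and 94.6 with E2 and at 70.5, 70.4 and 99.1 with E2 plus fulvestrant, so the groups overlapped. The repeat unit was chosen after the sequences were seen.

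Gene loci were compared by the number of peaks in the gene body and 50000 bp upstream, scaled per 10000 peaks of the list. Of 21728 protein-coding genes, 6488 had a mean of at least 3 peaks, and 0 of them (0%) passed an adjusted p of 0.05 in limma. At an unadjusted p under 0.05 stood 113 loci with more peaks with E2 and 263 with fewer. The median log2 difference over all tested loci was -0.17, and it was 0.07 when counts were not divided by list length, where the unadjusted counts were 95 and 11. Directions of single loci are therefore best read against that median.

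Nrg3, which encodes a neuregulin that signals through ERBB4, had the smallest p. Its locus on chromosome 14 held 19, 10 and 11 peaks with E2 and 3, 2 and 2 with E2 plus fulvestrant, so the groups did not overlap. The log2 difference was 2.01 ± 0.43 (SE, limma adjusted p = 0.114). Vehicle libraries held 17, 24 and 6 peaks there and fulvestrant libraries 14, 7 and 4, both above the E2 plus fulvestrant values. The locus of Esrrg, which encodes an orphan receptor related to ESR1, held 28, 15 and 13 peaks with E2 and 11, 5 and 4 with E2 plus fulvestrant, with a log2 difference of 1.23 ± 0.36 (SE, limma adjusted p = 0.804). For Nav3, a neuron navigator gene, the values were 14, 12 and 9 with E2 and 6, 1 and 4 with E2 plus fulvestrant. The loci of Hpse2, a heparanase relative, and Rabgap1l completed the 5, with 15, 6 and 5 against 6, 1 and 0 peaks for Hpse2, and 15, 6 and 7 against 7, 2 and 0 for Rabgap1l.

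The 5 loci with the smallest p in the other direction were Pex14, Arf3, Ltbp2, Bdkrb2 and Pltp. Ltbp2, which encodes a latent TGF-β binding protein of elastic fibres, had 7, 2 and 0 peaks with E2 and 10, 5 and 5 with E2 plus fulvestrant, with a log2 difference of -1.93 ± 0.54 (SE, limma adjusted p = 0.804). Bdkrb2, the bradykinin B2 receptor gene, had 2, 2 and 1 peaks with E2 and 10, 4 and 4 with E2 plus fulvestrant, and the groups did not overlap. Pex14, a gene of peroxisomal import, had 8, 1 and 0 against 12, 3 and 10. Arf3, a small GTPase gene, had 6, 2 and 0 against 6, 7 and 6, and Pltp, the phospholipid transfer protein gene, had 5, 0 and 1 against 7, 5 and 5. Before scaling to list length, only Bdkrb2 had groups without overlap, and none of these 5 loci passed the test. Overlap at loci was judged on these unscaled peak numbers, and its share over all tested loci was not counted.

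**Figure D5:**
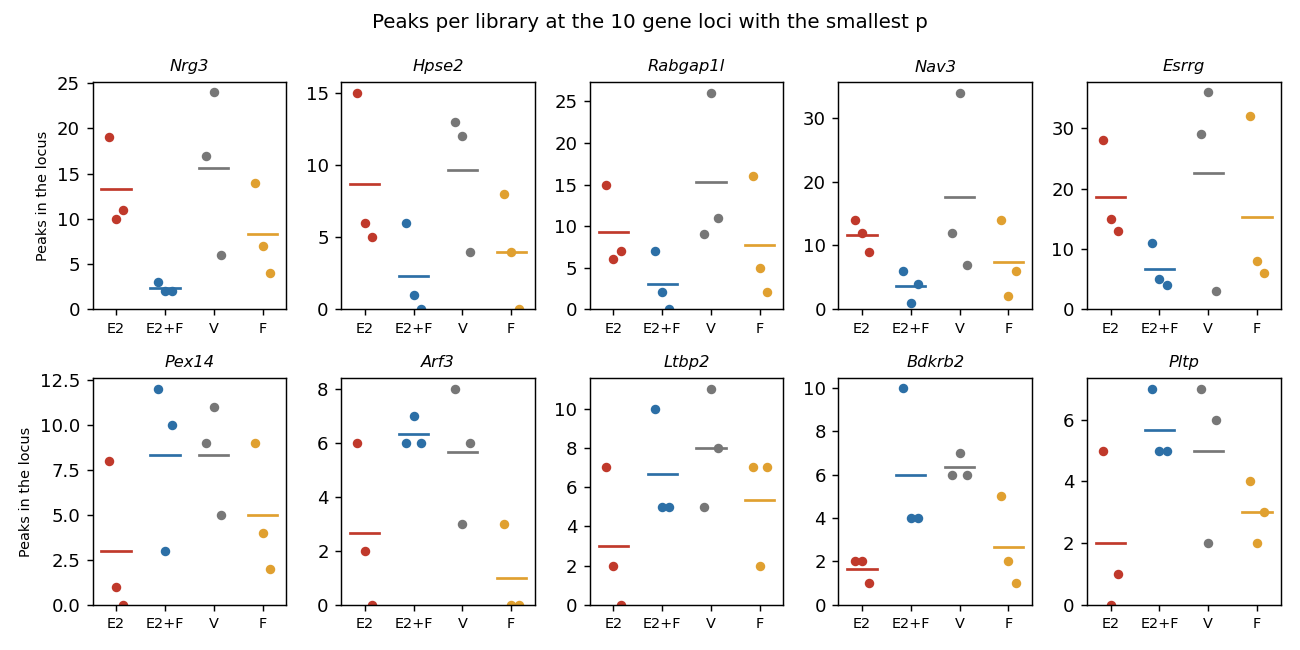
Number of peaks in 10 gene loci, for 3 libraries each (points) with their mean (line), given E2, E2 plus fulvestrant (E2+F), vehicle (V) or fulvestrant (F). Nrg3 held 19, 10 and 11 peaks with E2 and 3, 2 and 2 with E2 plus fulvestrant, while vehicle libraries ranged from 6 to 24 and fulvestrant libraries from 4 to 14.

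A region of a restricted class lay nearest to 2835 genes for E2-only (13.0% of 21728) and to 1739 for E2 plus fulvestrant-only (8.0%), within 100000 bp of a start site, and 450 genes had both. The genes with most E2-only regions were Trio, Rgs3, Gm21190 and Chil4 with 5 each and Zfp978 and Pde4d with 4 each. Rgs3 encodes a regulator of G-protein signalling and Pde4d encodes a cAMP phosphodiesterase. Rgs3 and Pde4d had 0 E2 plus fulvestrant-only regions, and Trio had 1. On the other side stood Gm5592 and Dip2a with 5 regions each and Gm10324, Ulk4, Cdh4 and Gm17693 with 4 each, of which Dip2a and Ulk4 had 0 E2-only regions. Trio was nearest to 86 regions of any class and Ulk4 to 82, beside a median of 5 over all genes.

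E2-only regions lay nearest to 13.0% of all genes and to a larger share of the estrogen targets and receptor coregulators, which also had more regions of any kind. Of 23 estrogen targets, 9 (39.1%) were nearest to an E2-only region and 3 (13.0%) to an E2 plus fulvestrant-only region. Of 19 receptor coregulators these were 8 (42.1%) and 0, the background for the latter being 8.0%. The median number of regions of any class per gene was 13 in both lists. Counted per region, E2-only regions made up 10 of 334 near estrogen targets (2.99%) and 10 of 285 near coregulators (3.51%), beside 1.90% near all genes. E2 plus fulvestrant-only regions made up 3 of 334 (0.898%) and 0 of 285, beside 1.10%. Other lists reached like shares, with 4 of 10 endothelial markers (40%) nearest to an E2-only region. Per region, 3.13% of those near immune markers and 2.73% of those near heat shock and hypoxia genes were E2-only. The paper reports heat shock and hypoxia response genes as raised by fulvestrant, so that list is not free of a link to this contrast. No test was made of these shares.

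The coregulator regions lay near Ncoa1, Ncoa2, Ep300, Crebbp, Nrip1, Pias1, Gata3 and Smarca4. Ep300 had an E2-only region in an exon at chr15:81648264-81648671 called in all 3 E2 libraries and in 0 of the 6 outside libraries, with a second-best percentile of 21. Ncoa2, the coactivator also known as GRIP1, had 3 E2-only regions on chromosome 1, and the one at chr1:13301731-13302135 lay 2211 bp from a start site. Nrip1, an E2-induced corepressor, had a single one at chr16:76468928-76469609. The Ncoa2 regions had second-best percentiles of 66.6, 49.6 and 12.8, and the first ranked above the middle of both calling lists, at 66.6 and 89.2.

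Estrogen targets with E2-only regions were Ccn5, Cited2, Esr1, Kcnk5, Xbp1, Wnt4, Ccnd1, Myc and Nrip1. Myc, the growth regulator, had 2 at 50284 and 19995 bp from a start site, and Ccnd1, the gene of cyclin D1, had 1 at 20423 bp, at chr7:144960097-144960599. Esr1 had 1 in an intron at chr10:4941082-4941498 and an E2 plus fulvestrant-only region at chr10:4597135-4597539, each called in 2 libraries of its group and in 0 of the 6 outside libraries. The strongest was on the other side: the E2 plus fulvestrant-only region 232 bp from a start site of Ltf, the lactoferrin gene, had a second-best percentile of 83.4. Within 3000 bp of a start site of Ltf, 1 E2, 3 vehicle and 3 fulvestrant libraries also had a peak.

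Promoters of protein-coding genes were called in at least 2 E2 libraries and 0 E2 plus fulvestrant libraries for 533 genes (2.45%), with the reverse for 395 (1.82%). All 6 libraries called 373 promoters. Pgr was among the 533. Its promoter had a peak in E2 replicates 1 and 3, with summits 916 and 1273 bp after the start site at percentiles 49.6 and 89.2, in 2 vehicle libraries, and in 0 of the 3 E2 plus fulvestrant and 0 of the 3 fulvestrant libraries. None of these Pgr promoter peaks reached a q of 0.05 or less. The peaks of E2 replicates 1 and 3 did not share bases, which is why no single Pgr region entered the E2-only class. The pattern of at least 2 E2 and 2 vehicle libraries and 0 with either fulvestrant treatment was met by 54 of 21728 promoters (0.249%), and its reverse by 13 (0.0598%).

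Greb1 and Ccn3 promoters were called in all 3 E2 libraries and in 1 E2 plus fulvestrant library. All 3 E2 libraries and at most 1 of the others called 457 promoters (2.10%), and 468 (2.15%) had the reverse. The Ccn3 promoter, of a matricellular CCN gene, had its strongest peak in E2 replicate 1, with a fold enrichment of 7.26 and a summit 1 bp from the start site, and the peak of E2 plus fulvestrant replicate 1 had a fold enrichment of 4.27 at 96 bp. In E2 replicate 3 the only peak lay 2295 bp before the start site at percentile 3.85. The Ccn3 promoter was also called in 2 vehicle libraries, at most at a fold enrichment of 6.94, and in 1 fulvestrant library, at 6.78. Greb1 peaks lay at several start sites of the gene. The Greb1 locus held 13, 12 and 5 peaks with E2 and 6, 6 and 2 with E2 plus fulvestrant, a log2 difference of 0.81 ± 0.42 (SE, limma adjusted p = 0.804). It held 13, 12 and 7 peaks with vehicle and 7, 8 and 6 with fulvestrant alone.

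Other genes discussed by the study did not pass the test or were not tested. Peaks in the locus numbered 12, 5 and 1 with E2 and 8, 7 and 4 with E2 plus fulvestrant for Ltbp1, a latent TGF-β binding protein gene. They numbered 14, 7 and 3 against 14, 7 and 6 for the mechanosensitive channel gene Piezo2, 12, 8 and 6 against 10, 5 and 5 for the adhesion gene Ncam1, and 7, 3 and 4 against 4, 4 and 6 for the semaphorin coreceptor gene Nrp2. Fbln7, the fibulin 7 gene, had 4, 2 and 3 against 5, 1 and 3. The limma adjusted p of these 5 loci ranged from 0.828 for Ltbp1 to 0.988 for Fbln7. Piezo2 had 1 E2-only region, in an intron at chr18:63191985-63192411. All 3 E2 libraries called it, at percentiles 49.6, 88.2 and 21.1, and 0 of the 6 outside libraries did. Nrp2 had 1 E2-only region, called in 2 E2 libraries. Ltbp1, Ncam1 and Fbln7 had 0, and all 5 genes had 0 E2 plus fulvestrant-only regions. E2-only regions lay nearest to 13.0% of all genes. Adamts6, Wnt5a, Wee1, Cdkn1c and Cdc7 had a mean under 3 peaks and were not tested. Promoters of Wnt5a and Cdc7, a replication kinase gene, were called in 2 libraries of each group, and that of the mitotic kinase gene Wee1 in 1 E2 and 2 E2 plus fulvestrant libraries. Promoters of Adamts6 and of the cell cycle inhibitor gene Cdkn1c were called in 1 library of each group.

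Gene lists gave 0 calls in either direction. The first list takes genes named by the study for E2. Of its 58 genes, 36 were tested, their median log2 difference was -0.08 beside -0.17 for all tested loci, and 23 lay above that median. Of the 34 genes on the corresponding list for E2 plus fulvestrant, which includes Nav3, 33 were matched and 17 tested, with a median of 0.08 and 12 above. Both lists were chosen by the study with these libraries, so they are no independent evidence of a direction. E2-only regions were nearest to 19 of 58 and 8 of 33, and E2 plus fulvestrant-only regions to 9 of 58 and 8 of 33, beside 13.0% and 8.0% of all genes, with medians of 17 and 22 regions of any class per gene beside 5. Counted per region, E2-only regions made up 1.45% and E2 plus fulvestrant-only regions 0.727% of those near the E2 list, below the 1.90% and 1.10% near all genes.

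Matrix and TGF-β genes had medians below that of all loci. The 19 tested of 32 collagen and matrix genes had a median log2 difference of -0.33, with 8 above the median of all loci, and the 17 tested of 25 TGF-β pathway genes had -0.51, with 5 above. In the pathway, Tgfb3, a ligand, had 3, 3 and 1 peaks with E2 and 5, 5 and 4 with E2 plus fulvestrant. Acvr1, a type I receptor, had 11, 8 and 6 against 5, 2 and 3, and both genes stood at a limma adjusted p of 0.804. Smad5, a receptor-regulated SMAD, had 5, 0 and 2 against 8, 3 and 3. Sparc, a collagen-binding matricellular gene, had 5, 2 and 1 against 7, 4 and 3. The promoter of the collagen gene Col4a1 was called in all 6 libraries, and that of the matrix gene Lum in 2 E2 and 0 E2 plus fulvestrant libraries.

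Heat shock and hypoxia genes had the lowest median and the single tested adipogenic marker the highest value. The 13 tested WNT pathway genes had a median log2 difference of -0.21, the 5 tested cell cycle genes 0.47 and the 10 tested immediate early genes -0.04. The 6 tested heat shock and hypoxia genes had -0.82, with 1 above the median of all loci. Of the last, Hsf1, the heat shock transcription factor gene, had 5, 1 and 2 peaks with E2 and 7, 4 and 4 with E2 plus fulvestrant, and its promoter was called in 1 and 3 libraries. The estrogen targets had -0.01 over 7 genes and the receptor coregulators -0.51 over 10. Fibroblast, myogenic, endothelial, immune and adipogenic markers had medians of -0.49, 0.19, -0.48, -0.24 and 0.71 over 6, 3, 5, 5 and 1 tested genes. In the promoters of WNT genes, Sfrp1, a secreted inhibitor, was called in 2 E2 and 0 E2 plus fulvestrant libraries, and among immediate early genes Egr2 was called in 0 and 2.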

How the data were processed

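ATAC-seq was performed by the authors on primary fibroblasts. Reads were trimmed with Trimmomatic 0.39, aligned to mm10 with Bowtie2, freed of duplicates with Picard 2.21.4 and passed to MACS2, which called peaks on each library alone, with tags shifted and extended around the insertion site. The deposited narrowPeak lists give for each peak its fold enrichment ratio, the p-value and q-value as −log10, and a score (10 times the former −log10 value, truncated). The authors deposited these values per peak. They include many peaks with q above 0.05, and read counts were not used here, so no count model was fitted and depth is known only as the background recovered from fold and p.

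Here, groups and replicate numbers came from the labels, and peaks were merged, annotated with GENCODE M21 and read against the GRCm38 reference. Ranks of the fold enrichment (shared regions) and log2 peak numbers with a pseudocount of 0.5 (gene loci, mean of at least 3 peaks) were compared with limma 3.58.1 in R 4.3.3, with Benjamini-Hochberg adjustment. Both fits were tested on simulated data. Single values per library were compared by the exact permutation test (two-sided, smallest p 0.10). Named items were the 6 regions and 6 genes per side with the strongest or most regions, the 5 shared regions and 5 loci per direction with the smallest p, and members of gene lists, of which 2 came from the study. Members and lists were chosen with earlier results of these data known. A gene and some sequences are not reported here.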

Additional observations from a re-analysis of the deposited data

How the results depend on the processing

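Counts of restricted regions moved most with the processing. E2-only and E2 plus fulvestrant-only regions numbered 4498 and 2403 as reported, 442 and 115 with peaks at q of 0.05 or less, 2098 and 1530 with lists of equal length, and 1565 and 1022 without replicate number 1, a setting chosen after seeing the data. Leaving out 1 library at a time gave 1174 to 6435 and 763 to 4250. Within 1000 bp of a start site stood 9.52% and 10.3% of them. Merged summit windows gave 4100 and 2235. Over single libraries left out, the difference in log2 peak number ranged from -0.111 to 0.571, turning in sign without E2 replicate 1. That in the share of shared regions ranged from -0.864 to 0.20 points, turning without E2 replicate 1. That in GC content ranged from -1.04 to 1.33 points, turning without E2 replicate 2 (0.248), E2 replicate 3 (0.647) or E2 plus fulvestrant replicate 1 (1.33). The vehicle minus fulvestrant difference ranged from -1.15 to 3.8 points, turning without vehicle replicate 2. The exact test cannot pass 0.05 with so few libraries in any of these settings, and the cause of the changes was not tested.

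The labels do not say that a number marks shared animals or a batch. The paper states that limma was used against batch effects in its ChIP-Seq and ATAC-seq analysis, and does not say what the batches were. Vehicle replicate 1 and fulvestrant replicate 1 also had few chromosome Y peaks, 34 and 35. The libraries numbered 1 in the 2 groups compared resembled each other (correlation of ranks 0.858, beside 0.688 to 0.731 for the other pairs). For ranks, their deviations from the group means correlated at 0.33, 0.058 and 0.0039 for numbers 1, 2 and 3, and not every library correlated best with its own number. For gene loci these were 0.19, 0.064 and 0.045, and every library correlated best with its own number. With the replicate block, limma called 0 shared regions and 1 locus, Nrg3 (adjusted p = 0.0126), against 0 and 0 without it. The region counts with the replicate block were 4971 and 2614. All other alternatives of both limma fits gave 0 calls, with smallest adjusted p of 0.376 to 1.00 for regions and 0.0538 to 0.986 for loci. The lists hold no reads, so the limit that depth sets on a missing peak could not be given.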
